A study of Homo sapiens with 5 samples.

Results

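The expression of 41 listed genes of the Fanconi anemia pathway, homologous recombination and the DNA damage checkpoint was examined in 5 clones of CP70, a human ovarian cancer line that was made resistant to cisplatin from A2780. The genes were taken by symbol from a list of these pathways. Of the 41, 35 had a probe set that carried their symbol alone, ATRIP and RAD54B were carried only by a probe set shared with another gene, and FANCA, FANCD2, BRCA2 and RBBP8 were not analysed here. The 3 DDB2 clones were stably transfected with a vector that expresses DDB2, and the 2 vector clones with the empty vector. The labels call the parent line of all 5 clones A2780-CP70, give no drug treatment for any of them, and number the clones 1, 2 and 3 (DDB2) and 1 and 3 (vector) in the titles. Each clone is a single selected line on 1 array, so that differences between the groups hold the differences between clones. The source names number the clone titled vector 3 as the second vector clone, and no label says which DDB2 array stands for clone 1B, 3H or 4H.

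Cisplatin joins bases within a strand and across the strands of DNA. A crosslink between the strands blocks replication forks, where the Fanconi core complex attaches ubiquitin to FANCD2 and FANCI. Nucleases then unhook the crosslink, and the resulting break is repaired by homologous recombination, which needs end resection by MRE11, RAD50 and NBN, and BRCA1, BRCA2, PALB2 and further mediator proteins, so that the broken strand can pair with an intact copy. The kinases ATM and ATR sense breaks and stalled forks and signal through CHEK2 and CHEK1 to hold the cell cycle. Many of these genes are transcribed mainly in dividing cells.

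No member of the group passed a fold change of 2, and 33 of the 35 did not pass an unadjusted P of 0.05. In 4 members, against 5.93% of all genes tested, every DDB2 clone was above both vector clones. These were CHEK1 at 1.43-fold and ATR at 1.27-fold, and ATM and PALB2, which did not pass the test. The clones of a group differed widely for the members. The median range among the DDB2 clones was 0.59 on the log2 scale, against 0.30 over all genes tested, and the median difference between the vector clones was 0.40, against 0.20.

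In the promoters of the genes that these patterns concern, 4 motifs were looked for on both strands of the 250 bases before the start of the gene, as listed first for it in RefSeq (GRCh38.p14). These were the E2F motif (TTTCCCGC, TTTGGCGC, TTTCGCGC or TTTGCCGC), the CCAAT box (CCAAT), the cell cycle homology region (CHR, TTTGAA) and TCCCCTT, the 7 letters shared by the DDB2 elements that the study describes in the NEDD4L and NFKBIA promoters. The first 3 sequences are those of the kinases that were higher in every DDB2 clone. The other 3 come from the 17 members in which both clones titled 3 were above the rest, and they do not stand for all of these. Of the 15 of the 17 with a promoter, 1 held the E2F motif, 8 the CCAAT box, 2 the CHR and 1 the DDB2 element. Capitals mark a match to a motif or to its reverse complement, and no base lay in more than 1 match.
CHEK1, chr11:125625979-125626228, strand +: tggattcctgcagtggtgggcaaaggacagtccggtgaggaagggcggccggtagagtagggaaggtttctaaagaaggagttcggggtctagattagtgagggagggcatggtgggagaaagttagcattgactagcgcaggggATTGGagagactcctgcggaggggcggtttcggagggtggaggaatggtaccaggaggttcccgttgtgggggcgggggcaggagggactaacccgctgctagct
ATR, chr3:142578734-142578983, strand -: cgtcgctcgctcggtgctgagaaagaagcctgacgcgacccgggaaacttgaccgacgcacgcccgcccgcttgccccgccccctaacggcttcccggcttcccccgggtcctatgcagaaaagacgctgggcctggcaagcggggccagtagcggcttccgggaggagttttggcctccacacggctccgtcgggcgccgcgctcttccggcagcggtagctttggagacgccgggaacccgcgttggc
ATM, chr11:108222817-108223066, strand +: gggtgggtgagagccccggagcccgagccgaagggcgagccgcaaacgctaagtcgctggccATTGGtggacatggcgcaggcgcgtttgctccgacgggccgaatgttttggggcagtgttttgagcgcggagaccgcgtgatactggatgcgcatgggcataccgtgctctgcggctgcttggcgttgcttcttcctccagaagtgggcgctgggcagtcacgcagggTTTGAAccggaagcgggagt
BRIP1, chr17:61863529-61863778, strand -: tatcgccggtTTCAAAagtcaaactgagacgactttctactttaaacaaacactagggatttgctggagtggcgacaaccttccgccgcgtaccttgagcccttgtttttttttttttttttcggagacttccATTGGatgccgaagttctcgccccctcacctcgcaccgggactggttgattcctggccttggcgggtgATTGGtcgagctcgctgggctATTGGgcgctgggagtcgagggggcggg
XRCC2, chr7:152676142-152676391, strand -: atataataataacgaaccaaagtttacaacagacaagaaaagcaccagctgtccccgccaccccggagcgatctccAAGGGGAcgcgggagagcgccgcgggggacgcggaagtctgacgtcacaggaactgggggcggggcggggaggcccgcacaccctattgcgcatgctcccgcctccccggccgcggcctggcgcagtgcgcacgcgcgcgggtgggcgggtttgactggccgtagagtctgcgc
FANCC, chr9:95317710-95317959, strand -: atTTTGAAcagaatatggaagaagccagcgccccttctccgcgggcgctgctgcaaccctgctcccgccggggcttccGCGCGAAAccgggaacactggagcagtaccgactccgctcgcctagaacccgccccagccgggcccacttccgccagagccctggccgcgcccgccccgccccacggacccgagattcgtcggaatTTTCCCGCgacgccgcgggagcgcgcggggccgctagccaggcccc

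A promoter was matched for 33 of the 35 members, and FANCI and NBN had none in the table. The CCAAT box was found for 14 of the 33 (42.4%, against 33.0% of 27305 genes), among them CHEK1 and ATM, and the CHR for 4 (12.1%, against 13.6%). In BRIP1 the CCAAT box occurred at 3 places, all as ATTGG. The E2F motif was found in 1 member, FANCC, with 2 matches (3.03%, against 2.79%). The DDB2 element was found in RAD50 and XRCC2 (6.06%, against 6.68%), and in none of CHEK1, ATR and ATM. These matches are letters in a window and not measured binding sites. The study places the NEDD4L element farther before the gene start than this window reaches. Whether CHEK1, ATR and ATM have such an element beyond the window was not tested.

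The DDB2 probe set read 7.84 and 7.25 (log2) with the empty vector, against 9.87, 9.0 and 9.14 with DDB2, so that every DDB2 clone was above both vector clones. Of the 10 ovarian and epithelial markers, VIM, KRT18 and KRT8 lay well above the filter level of 4.48 in every clone. PAX8 (5.16 to 5.28) and WT1 (4.33 to 4.57) lay near it. KRT19, MUC16 and CDH1 lay near it too, with at most 4.91, 4.69 and 4.44. WT1 and CDH1 did not pass the filter. EPCAM was the marker called between the groups, at 7.26 and 5.86 with the empty vector against 5.53, 5.44 and 5.29 with DDB2, and CDH2 was at 5.82 in DDB2 clone 1 against 3.76 to 4.81 in the others. PTPRC, the pan-leukocyte marker, had at most 2.41, and of the leukocyte list CD68 (6.12 to 7.33) alone passed the filter. Of the endothelial list, KDR and PECAM1 had at most 3.12 and 3.45, and CDH5 (4.41 to 4.56) and VWF (4.55 to 4.67) passed the filter near its level. Of the fibroblast list, COL1A1 (5.61 to 5.85) and COL1A2 (4.59 to 4.84) passed. DCN and LUM did not pass but were at 6.02 and 4.73 in DDB2 clone 1, above all the other clones. All 35 members exceeded the filter level on all 5 arrays. Among 15396 genes tested with limma, 26 were called higher (0.169%) and 30 lower (0.195%) at a more than 2-fold difference with unadjusted P under 0.05, and 0 at an adjusted p under 0.05. Of the 35 members, 0 were called in either direction. At an unadjusted P under 0.05 alone, 2 of the 35 members were higher (against 1.36% of all genes tested) and 0 lower (against 1.55%). The median log2 fold change of the 35 members was -0.04, with 15 above and 20 below 0, while that of all genes was -0.02.

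**Figure D1:**
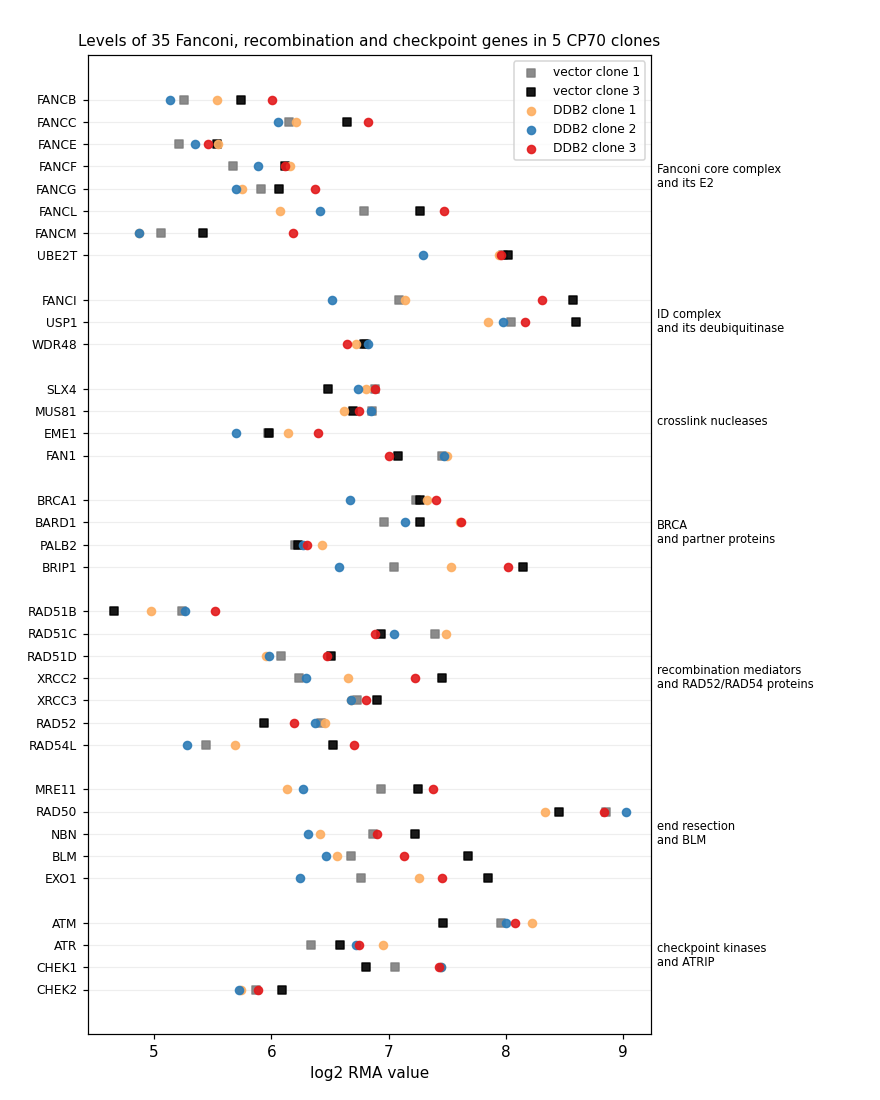
Log2 RMA value (horizontal axis) of each of the 35 members, grouped by role, in the 2 vector clones (squares) and the 3 DDB2 clones (circles). CHEK1, ATR and ATM have all 3 circles to the right of both squares, whereas in FANCI, BRIP1, XRCC2 and RAD54L vector clone 3 and DDB2 clone 3 lie together at the right.

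Among the checkpoint genes, CHEK1 encodes the kinase that ATR activates at stalled forks. In the order of vector clones 1 and 3 and DDB2 clones 1, 2 and 3, kept throughout, CHEK1 read 7.05 and 6.81 (log2) in vector cells, against 7.45, 7.44 and 7.43 in DDB2 cells. The DDB2 clones were nearly equal, and the lowest of them lay 0.38 above the higher vector clone. The DDB2 clones exceeded the vector clones by 0.51 on the log2 scale (standard error, SE, 0.110; 95% confidence interval, CI, 0.22 to 0.80; adjusted p = 0.999 from limma), and all 3 DDB2 clones were the higher ones. The unadjusted P of CHEK1 was 0.00653 and stayed under 0.05 whichever array was left out (log2 fold change 0.39 to 0.64). Where a vector clone is left out, here and for the genes that follow, the gene's own spread comes from the DDB2 clones alone. Limma then shrinks it towards the spread of all probe sets. Such a P assumes that the lone vector clone varies like the DDB2 clones. Genes next to CHEK1 on chromosome 11 leaned the same way. Of its 20 nearest genes tested in RefSeq order, 18 had a log2 fold change above 0 (against 45.4% of all genes). Their median was 0.32, and 11 had all 3 DDB2 clones above both vector clones, which held for 5.93% of all genes. DNA copy number was not measured here, and the part of the neighbourhood in the CHEK1 result was not tested.

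ATR, the kinase that senses single-stranded DNA at forks, read 6.34 and 6.58 (log2) with the empty vector, against 6.95, 6.72 and 6.75 with DDB2. All DDB2 clones were again above both vector clones, by at least 0.14. Its log2 fold change was 0.35 (SE 0.131, 95% CI 0.00 to 0.69), with an unadjusted P of 0.0487. That P was under 0.05 on all arrays and without vector clone 3 (0.0423), but not without vector clone 1 (0.221), DDB2 clone 1 (0.114), DDB2 clone 2 (0.0763) or DDB2 clone 3 (0.0779). It was 0.113 with the title number as a replicate block and 0.134 with the source name number. The 20 genes nearest to ATR on chromosome 3 had a median of 0.08, with 13 above 0 (against 45.4% of all genes). In 0 of them were all DDB2 clones above both vector clones (against 5.93% of all genes).

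ATM, the kinase that senses DNA breaks, read 7.96 and 7.47 (log2) in vector cells, against 8.22, 8.0 and 8.07 in DDB2 cells. The groups did not overlap, but vector clone 1 lay only 0.04 under the lowest DDB2 clone, and vector clone 3 stood apart. The log2 fold change of 0.39 (SE 0.180, 95% CI -0.09 to 0.86) did not pass the test and was 0.14 without vector clone 3 and 0.63 without vector clone 1. The 20 genes nearest to ATM had a median of 0.18, with 16 above 0 (against 45.4% of all genes). In 4 of them all DDB2 clones were above both vector clones (against 5.93% of all genes). ATM and CHEK1 lie on the same chromosome arm, and the 134 genes tested between them had a median of -0.01. Of these, 62 were above 0 and 15 had all DDB2 clones above both vector clones, against the same 45.4% and 5.93%. The part of these neighbours in the ATM result was not tested.

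CHEK2, the kinase downstream of ATM, gave the opposite sign. It read 5.87 and 6.09 (log2) with the empty vector, against 5.74, 5.72 and 5.89 with DDB2, with DDB2 clone 3 between the vector clones. The log2 fold change was -0.19 (SE 0.119, 95% CI -0.51 to 0.12). Thus 3 of 4 checkpoint kinases with a value had DDB2 clones above both vector clones. Over all 35 members there were 4 such genes (11.4%, against 5.93% of all genes), the fourth being PALB2, and 1 with all DDB2 clones below both vector clones (2.86%, against 12.5%), namely UBE2T.

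**Figure D2:**
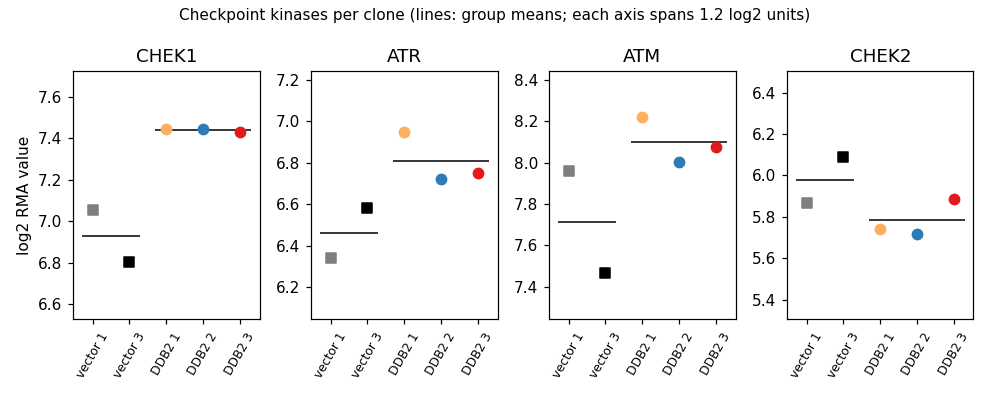
Log2 RMA value of the 4 checkpoint kinases in each clone, with lines at the group means and the same span of 1.2 on each vertical axis. The DDB2 clones lie above the vector clones for CHEK1, ATR and ATM, and overlap them for CHEK2.

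The 8 measured genes of the Fanconi core complex and its ubiquitin-conjugating enzyme had log2 fold changes from -0.38 for FANCL to 0.16 for FANCF, and none passed the test. FANCL, the ubiquitin ligase subunit, read 6.79 and 7.26 (log2) in vector cells, against 6.07, 6.42 and 7.47 in DDB2 cells, so that DDB2 clone 3 was the highest of all clones and DDB2 clone 1 the lowest. FANCM, the translocase that anchors the complex to DNA, showed a wide spread as well, with 5.06 and 5.41 under the empty vector, against 4.87, 4.87 and 6.18 under DDB2. In both genes the DDB2 clone titled 3 stood over 1 log2 unit above the other DDB2 clones, and the 95% confidence intervals were -1.59 to 0.84 for FANCL and -1.15 to 1.3 for FANCM. FANCB, FANCC and FANCG, further subunits, also had both clones titled 3 above the other 3. FANCE and FANCF did not, with differences of 0.08 and 0.16 between the groups. UBE2T, the enzyme that supplies ubiquitin to FANCL, was near 8 in 4 clones (7.94 to 8.02) and at 7.29 in DDB2 clone 2.

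Of the FANCD2-FANCI complex, FANCI was measured. It had the widest spread of all 35 members, both between the vector clones and among the DDB2 clones. It read 7.09 and 8.57 (log2) with the empty vector, against 7.14, 6.52 and 8.31 with DDB2. The lower of the clones titled 3 exceeded the highest of the other 3 clones by 1.17. The difference between the groups, -0.51 (SE 0.703, 95% CI -2.35 to 1.33), was smaller than that spread, and it was -1.25 without vector clone 1 and 0.24 without vector clone 3. USP1, which removes ubiquitin from the complex, had a log2 fold change of -0.33 (-0.86 to 0.21), and WDR48, the cofactor of USP1, -0.07 (-0.32 to 0.19). WDR48 varied little, from 6.65 to 6.82 over all clones.

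The crosslink nucleases differed little between the groups. SLX4, the scaffold of several nucleases, had a log2 fold change of 0.13 (95% CI -0.27 to 0.52), MUS81, a nuclease of branched DNA, -0.04 (-0.35 to 0.27), its partner EME1 0.11 (-0.48 to 0.69), and FAN1, a nuclease recruited by ubiquitinated FANCD2, 0.06 (-0.51 to 0.62). None of these 4 genes had both clones titled 3 above the other 3, and FAN1 had them below, at 7.08 and 7.01 against 7.46 to 7.49.

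BRCA1, which promotes resection and recruits PALB2, read 7.24 and 7.27 (log2) in vector cells, against 7.33, 6.67 and 7.41 in DDB2 cells. Only DDB2 clone 2 stood apart, and the log2 fold change of -0.12 (95% CI -0.78 to 0.55) was 0.11 without it. BARD1, the partner of BRCA1 in its ubiquitin ligase, had a log2 fold change of 0.34 (-0.20 to 0.87). PALB2, which links BRCA1 to BRCA2, read 6.20 and 6.22 (log2) with the empty vector, against 6.43, 6.27 and 6.31 with DDB2. The groups of PALB2 did not overlap, but its log2 fold change was only 0.13 (-0.13 to 0.38), and the gap between the groups was 0.05. BRIP1, a helicase that binds BRCA1, behaved like FANCI, with 7.05 and 8.15 under the empty vector, against 7.53, 6.57 and 8.02 under DDB2. Its log2 fold change of -0.22 (-1.67 to 1.22) was 0.33 without vector clone 3 and -0.77 without vector clone 1.

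The recombination mediators and the RAD52 and RAD54 proteins did not move as a group. XRCC2 read 6.23 and 7.46 (log2) in vector cells, against 6.65, 6.29 and 7.23 in DDB2 cells. RAD54L, a motor protein of strand pairing, read 5.44 and 6.52 (log2) with the empty vector, against 5.69, 5.28 and 6.71 with DDB2. In both genes the clones titled 3 were well above the other 3, by at least 0.58 and 0.84, while the groups differed by -0.12 (-1.34 to 1.10) and -0.09 (-1.53 to 1.34). RAD51D and XRCC3 followed the same order with smaller gaps. RAD51C, which shares complexes with both, and RAD52, a mediator of strand annealing, had the reverse order, with both clones titled 3 below the other 3. RAD51B overlapped between these clones, and its log2 fold change of 0.31 (-0.35 to 0.97) was the largest rise of this group.

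The genes of end resection and BLM gave the largest falls beside FANCI, and none passed the test. NBN, the subunit that recruits ATM, read 6.86 and 7.22 (log2) in vector cells, against 6.41, 6.31 and 6.90 in DDB2 cells. Its log2 fold change was -0.50 (SE 0.232, 95% CI -1.11 to 0.10, unadjusted P of 0.0858). MRE11, the nuclease of the same complex, read 6.93 and 7.25 (log2) with the empty vector, against 6.13, 6.27 and 7.38 with DDB2. DDB2 clones 1 and 2 were the lowest and DDB2 clone 3 the highest of all, which gave a log2 fold change of -0.49 (-1.61 to 0.62). Without DDB2 clone 3, MRE11 was -0.89 and NBN -0.68, and both of them and FANCL had an unadjusted P under 0.05 in limma. RAD50, the third subunit, did not follow them, with 0.08 (-0.59 to 0.75). BLM, the helicase that acts in resection and dissolves recombination intermediates, read 6.68 and 7.68 (log2) in vector cells, against 6.56, 6.47 and 7.13 in DDB2 cells, a log2 fold change of -0.46 (-1.44 to 0.52) that was 0.04 without vector clone 3 and -0.96 without vector clone 1. EXO1, a resection nuclease, had -0.32 (-1.65 to 1.02), with both clones titled 3 on top.

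**Figure D3:**
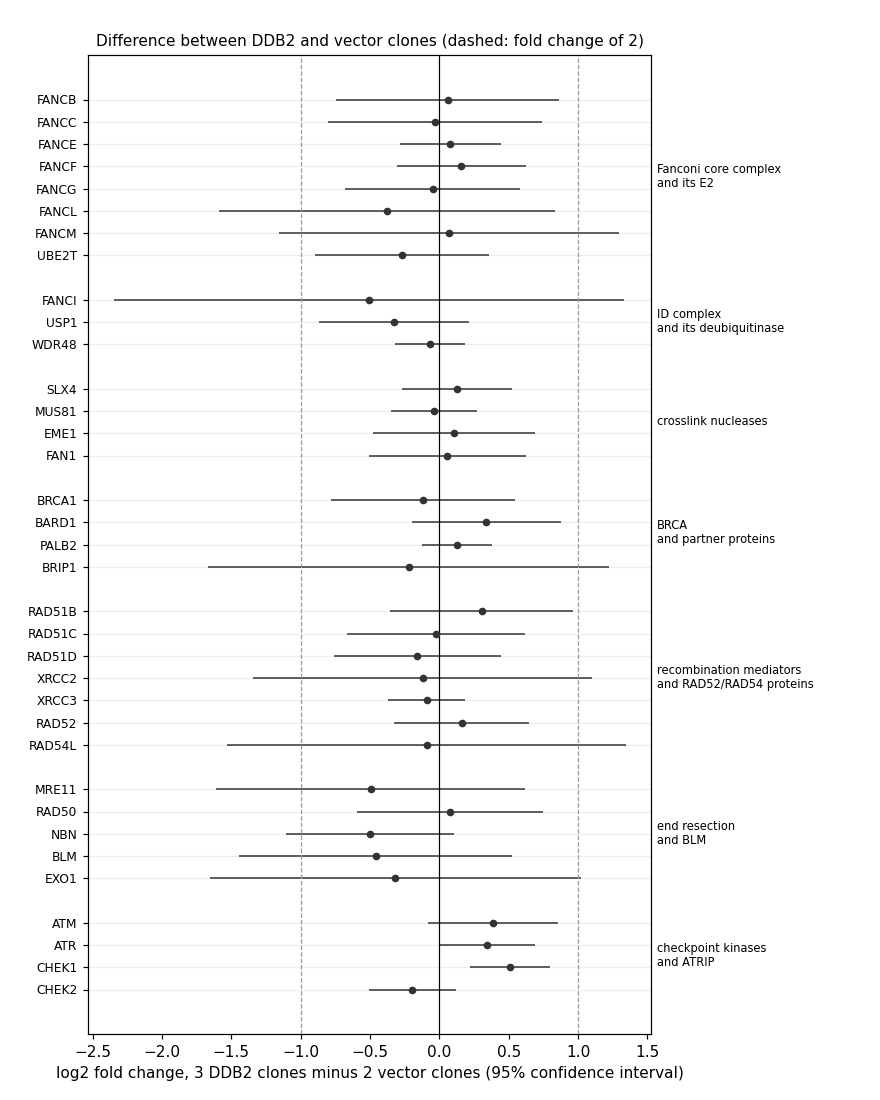
Log2 fold change of each member (DDB2 minus vector clones, points) with its 95% confidence interval (bars), by role, with dashed lines at a fold change of 2. Of the 35 intervals, 25 lie inside the dashed lines, and those of CHEK1 and ATR exclude 0.

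For 25 of the 35 members the 95% confidence interval lay within a fold change of 2 in both directions, and for the other 10 it reached a fold of 2, so that a difference of that size lay within the interval. These intervals come from the spread of single clones, and an exact permutation of 2 against 3 clones cannot give a two-sided p under 0.1. All 10 were among the genes in which both clones titled 3 were above the rest. In 17 of the 35 members (48.6%, against 19.7% of all genes tested) vector clone 3 and DDB2 clone 3 were both above the other 3 clones, in 3 (FAN1, RAD51C and RAD52, against 19.0%) both were below, and in 15 they overlapped. The 17 were FANCB, FANCC, FANCG, FANCL, FANCM, FANCI, USP1, BRIP1, RAD51D, XRCC2, XRCC3, RAD54L, MRE11, NBN, BLM, EXO1 and CHEK2. DDB2 clone 2 was the lowest of all clones in 13 members (37.1%, against 18.8%), among them FANCI, BRIP1, EXO1, RAD54L and BRCA1. The number in a title is a label only, and no test was made of this order of the clones, which was noticed in the values.

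**Figure D4:**
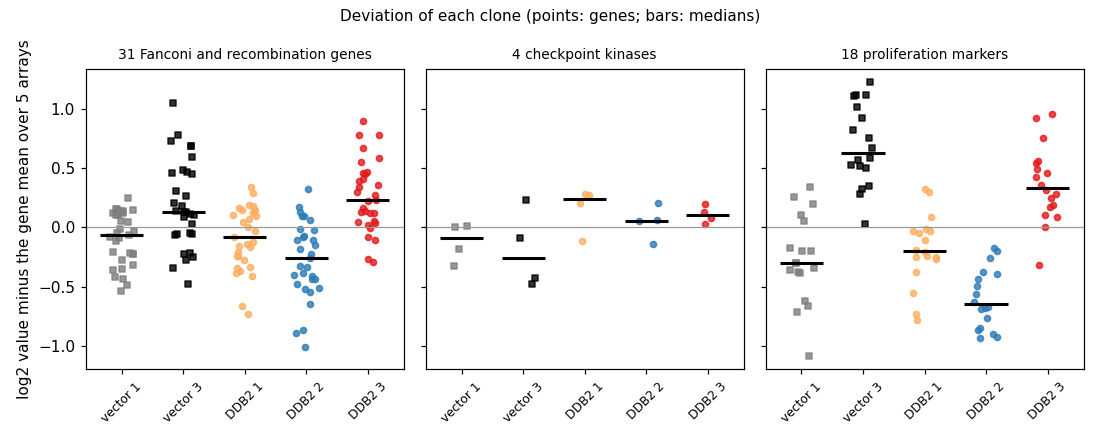
Log2 value of each gene minus its mean over the 5 arrays (vertical axis) in each clone, for the 31 Fanconi and recombination genes, the 4 checkpoint kinases and 18 proliferation markers, with bars at the medians. In the first and the third panel the medians of vector clone 3 and DDB2 clone 3 lie above 0. That of DDB2 clone 2 is lowest there (-0.26 and -0.65). The median of the checkpoint kinases is lowest in vector clone 3 at -0.26, although CHEK2 is highest in that clone.

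The proliferation markers also had both clones titled 3 above the others in most genes, with a wider spread. Of 18 such genes, 15 had both clones titled 3 above the other 3 (83.3%, against 19.7% of all genes tested). The median deviation of the 18 from the gene mean was 0.63 in vector clone 3 and 0.33 in DDB2 clone 3. It was -0.30, -0.20 and -0.65 in vector clone 1, DDB2 clone 1 and DDB2 clone 2. Vector clone 3 was the highest clone in 17 of the 18 markers and DDB2 clone 3 in 0, whereas each was the highest in 11 of the 35 members. Over all 15396 genes tested, vector clone 3 was the highest in 4209 and DDB2 clone 3 in 2991. For the 31 Fanconi and recombination genes the medians were 0.13 and 0.23 in the clones titled 3 and -0.07, -0.08 and -0.26 in the others. The 4 checkpoint kinases had -0.26 and 0.11 in the clones titled 3 and did not share this pattern as a group. MKI67, the antigen of dividing cells, read 9.46 and 10.4 (log2) with the empty vector, against 9.41, 8.79 and 10.2 with DDB2, and CCNE2, a cyclin of the entry into S phase, 4.92 and 6.42 against 4.52, 4.40 and 6.26. None of the 18 markers was called. All 18 had a log2 fold change under 0 (against 8404 of 15396 genes tested), with a median of -0.35. Only CCNA2 had all DDB2 clones below both vector clones (5.56%, against 12.5% of all genes). In RRM2, for example, vector clone 3 was the highest and vector clone 1 the lowest of all clones. In bulk RNA a different share of dividing cells and a different amount of transcript per cell cannot be told apart. The part of proliferation in the values of the members was not tested.

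Other genes of the pathway, taken from a list that holds no member, gave a like picture. Of 43 with a value, 0 were called and 0 had an unadjusted P under 0.05 in either direction, with a median log2 fold change of -0.02 and a range from -0.56 for TIPIN to 0.39 for WEE1. TIPIN supports the fork during the checkpoint, and WEE1 restrains mitotic entry. In 2 genes of this list, RAD1 and RAD9A, all DDB2 clones were above both vector clones (4.65%, against 5.93% of all genes). In none were they below (against 12.5%). RAD1 and RAD9A are subunits of the clamp through which ATR is activated. Their log2 fold changes were 0.09 and 0.18, with gaps of only 0.022 and 0.027 between the groups. HUS1, another subunit of this clamp, had -0.13, with DDB2 clones 2 and 3 under both vector clones. Both clones titled 3 were above the other 3 in 21 of the 43 genes (48.8%, against 19.7% of all genes tested). CLSPN, the adaptor between ATR and CHEK1, was one of them, with 5.75 and 7.55 under the empty vector, against 6.30, 5.99 and 7.46 under DDB2, an order unlike that of either kinase. Without vector clone 1, TIPIN (-1.38) and CDC25A (-1.19), a phosphatase that CHEK1 targets, passed both thresholds as lower, while the calls over all genes rose from 56 to 219.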

How the data were processed

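Total RNA of 5 CP70 clones was hybridized to GeneChip Human Transcriptome Arrays, 1 per clone. The authors used the Affymetrix console (version not given in the sources used here) for background correction, normalization and RMA summaries, and the deposited values are on the log2 scale, as read from their range. Groups were taken from the sample titles. Of 70523 entries, 2995 control entries were left out. Probe sets above 4.48, the median of all deposited values, on at least 2 arrays were kept (34141 of 67528), since the study filtered sets below noise in 4 samples. Where several probe sets carried a symbol alone, that of highest mean was used. RMA values of the markers are set against the filter level, but those of different probe sets are not compared with one another as levels.

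The groups were compared with limma 3.58.1 in R 4.3.3 (lmFit, eBayes; the prior had 1.72 degrees of freedom). P-values were adjusted by Benjamini-Hochberg over the 34141 probe sets, and the code was tested on simulated data. Calls need a more than 2-fold difference with unadjusted P under 0.05, as in the study. Background shares are over genes named alone. The members and lists were chosen with earlier results of these data known. The values on every array were given for members with an unadjusted P under 0.05, the 6 largest log2 fold changes, the 3 widest spreads in each group and genes fixed for their role. Those of FANCL, FANCM, CLSPN, MKI67 and CCNE2 were added after seeing the values. Alternatives were other filters, normalizations, variance models, a replicate block, and each array left out. Figures were drawn with matplotlib 3.10.9. The number of arrays limits the precision, and p-values measure the spread between single clones.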

Additional observations from a re-analysis of the deposited data

How the results depend on the processing

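No member was called at both thresholds in any of the alternatives. At an unadjusted P under 0.05 without the fold threshold the count was 2, and it was 1 (CHEK1) after a filter at the 75th percentile, quantile normalization, centred arrays, an intensity trend or equal variances without shrinkage, and 1 to 4 with single arrays left out. Over all genes tested, 2.92% had such a P as reported, 1.81% to 4.77% in those 5 settings, and 1.72% (without DDB2 clone 2) to 7.25% (without vector clone 1) with single arrays left out. CHEK1 kept its P under 0.05 in every alternative, and ATR lost it in those 5 settings (P from 0.0524 to 0.0778). With single arrays left out, the median log2 fold change of the members ran from -0.17 to 0.095. Changes of sign were counted only among the members chosen by the rule above, and others turned sign too. EXO1 did so without vector clone 3, with a DDB2 mean of 6.99 against 6.76 and 7.84 in vector clones 1 and 3. Of the members counted, 6 turned sign with single arrays left out. BLM ran from -0.96 to 0.043, BRCA1 from -0.25 to 0.11 and BRIP1 from -0.77 to 0.33. FANCI ran from -1.25 to 0.24, RAD54L from -0.63 to 0.45 and XRCC2 from -0.73 to 0.49. The count of other genes of the pathway called ran from 0 to 2 in the same way. The count of members above in both clones titled 3 was 18 after quantile normalization or centring and 13 of the 29 members that passed the filter at the 75th percentile, alternatives chosen after seeing the data. For the replicate block, clones with the same number in the titles had correlated deviations (0.34 for number 3, 0.13 for number 1). So did vector clone 1 and DDB2 clone 2 (0.25). Deviations were taken from the group mean, so those of the 2 vector clones mirror each other and those of the DDB2 clones add to 0. These correlations thus depend on one another and cannot decide a pairing. Only the numbers 1 and 3 are shared by both groups, and the numbers were not taken as pairs. With the title number as a replicate block, 3 members had an unadjusted P under 0.05 (against 3.25% of all genes), and ATR did not (0.113). The fold changes of BRCA1 (0.11), BRIP1 (0.18), RAD54L (0.21) and XRCC2 (0.095) turned positive. With the number in the source names as a replicate block, 4 members had such a P (against 4.81% of all genes), and ATR did not (0.134). The 4 were CHEK1, which was higher, and FANCL, MRE11 and NBN, which were lower. In the title block DDB2 clone 2 has no vector clone of its number, and in the source name block DDB2 clone 3 has none. That clone then adds nothing to the fold change. The fold changes thus equal those with that array left out, such as 0.11 for BRCA1 (title) and -0.89 for MRE11 (source name). For the fold changes the blocks are therefore not separate alternatives. What sets these clones apart was not tested.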

Other observations

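ATRIP, the partner of ATR, shares its probe set with TREX1. That set read 5.79 and 5.94 (log2) with the empty vector, against 5.84, 5.84 and 5.95 with DDB2, which differed by 0.01 (standard error 0.10) between the groups. It thus did not show the order seen for ATR. RAD54B shares its probe set with FSBP, and this set read 6.10 and 6.69 (log2) with the empty vector, against 6.34, 5.59 and 6.58 with DDB2. Both clones titled 3 were above the other 3 there too, as for RAD54L. Which gene of a shared probe set gave these signals cannot be told apart.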
